A study of Drosophila melanogaster with 4 samples.

Results

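The endoplasmic reticulum (ER) chaperones and the sensors of the unfolded protein response were followed in the larval fat body of Drosophila melanogaster, the organ that stores nutrients and secretes most blood proteins of the larva. The set holds 10 of the 13990 gene symbols in the deposited tables, chosen by name for their function: the lumenal chaperones and disulphide isomerases Hsc70-3, Gp93, Pdi, ERp60, CaBP1 and Crc, and the signalling genes Ire1, Xbp1, PEK and crc. Upper and lower case matter here, since Crc is calreticulin (now Calr) and crc (cryptocephal) is the fly ATF4 gene. The name ire-1 does not occur in the tables and was read from the line Ire1, its current symbol; the other 9 names matched as written.

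In the ND-75-i group, dMef2-Gal4, a muscle driver, expressed UAS-ND-75-RNAi, against a subunit gene of respiratory complex I. Con larvae carried the driver with UAS-white-RNAi, against an eye pigment transporter gene. All larvae carried the label yw and the dMef2-Gal4 driver and were 3rd instar larvae at 110 h after egg laying. Each of the 2 samples per group was RNA from 10 pooled fat bodies, so a sample is a pool and not an animal. The study asks how perturbing complex I in muscle alters the transcriptome of a distant organ. Values are FPKM, fragment counts scaled by transcript length and library size. A change is the difference in log2(FPKM + 1), ND-75-i minus Con. Whether the 2 samples of a group came from separate crosses is not stated, so the p-values reflect only how far these samples spread, possibly for technical reasons.

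Proteins bound for secretion enter the ER through the Sec61 channel and fold there with the help of Hsp70 and Hsp90 family chaperones, the lectin calreticulin and thioredoxin-like enzymes that form disulphide bonds. When unfolded protein builds up, the sensor Ire1 splices the Xbp1 mRNA in the cytoplasm, the kinase PEK (the fly PERK) phosphorylates eIF2alpha and favours translation of crc, and Atf6 is released to the nucleus; the targets of these branches include the chaperones themselves. In the late larval fat body this machinery serves a very large output of storage and blood proteins. Splicing of Xbp1 and translation of crc are not measured by gene-level FPKM.

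Summed over the table, ND-75-i replicates 1 and 2 held 957235 and 942561 FPKM, and Con replicates 1 and 2 held 861027 and 849472 FPKM. ND-75 itself, listed as ND75, stood at 94.8 and 79.0 FPKM in ND-75-i fat bodies and at 46.6 and 43.9 FPKM in Con, a rise in the fat body (log2 change 0.92, SE 0.125, limma adjusted p = 0.0353, and 0.0793 after median-ratio scaling). The gene w stood at 2.11 and 6.96 FPKM in ND-75-i and at 2.48 and 5.37 FPKM in Con. Neither value speaks to the knockdown, which was driven in muscle. Of 10023 genes tested across the whole table with limma, 778 (7.76%) rose and 109 (1.09%) fell past an adjusted p of 0.05, and the median log2 change of all genes was 0.25. Median-ratio scaling gave 348 higher and 139 lower, and quantile normalization 605 higher and 379 lower. Of 7 fat body markers none was absent where an estimate was given, but they were far from level between groups and went in both directions. Among the 6 that could be tested, 4 were lower and 2 higher in both ND-75-i libraries, beside 21.7% and 53.7% of all genes tested. Of the 6, 1 was called in each direction. Fbp1, the storage protein receptor, stood at 22.5 and 393 FPKM in ND-75-i against 14971 and 17897 FPKM in Con. RNA of the salivary gland, another heavily secreting tissue, was present in all 4 libraries. The 6 glue genes (Sgs1, Sgs3, Sgs4, Sgs5, Sgs7 and Sgs8), which salivary glands express to fix the pupa, summed to 26342 and 17946 FPKM in ND-75-i and to 81221 and 38549 FPKM in Con. With ng2 and Eig71Ee there were 8 salivary gland markers. Of these, 7 had a log2 change below 0, as did 3280 of all 10023 genes tested. The remaining 1, not a glue gene, lay above 0, at 4.64. None of the 8 passed an adjusted p of 0.05 in limma. In bulk samples, fewer cells of a type and less RNA per cell cannot be told apart.

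None of the 10 genes passed the threshold in either direction, which 8.85% of all genes tested did. The chaperones lay slightly lower in ND-75-i or level with Con and overlapped between groups, except ERp60, whose values were lower in both ND-75-i libraries. The 4 signalling genes lay slightly higher in both ND-75-i libraries than in both Con libraries. The median log2 change of the 10 was -0.06, against 0.25 over all genes tested, and 8 of the 10 lay below the median gene. Without adjustment, Ire1 and PEK (higher) and ERp60 (lower) had a p below 0.05, where 29.4% of all genes tested were higher and 7.70% lower by that measure.

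Hsc70-3, the fly BiP and the central Hsp70 chaperone of the ER lumen, lies on chromosome X at 11695729 to 11701212, with 3 start site groups in the tables. It stood at 393 and 568 FPKM in the 2 ND-75-i libraries and at 653 and 462 FPKM in Con, a log2 change of -0.22 (SE 0.270, limma adjusted p = 0.561, n = 2 per group). The groups overlapped, and the 2 libraries of a group differed more than the group means did. The 95% interval of the change ran from -0.97 to 0.54, which corresponds to folds of 0.511 to 1.45. Such intervals are not adjusted for the number of genes tested.

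Gp93, the ER Hsp90 (the fly GRP94), on 3R at 23774380 to 23777882, had 149 and 213 FPKM in ND-75-i and 233 and 174 FPKM in Con. Its pattern over the libraries was that of Hsc70-3, with overlapping groups and a log2 change of -0.17 (SE 0.248, limma adjusted p = 0.611). The last 110 bases of its locus overlap that of CG4951, a gene at 7.61 to 17.3 FPKM. Strandedness of the counting is not given in the sources used here.

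Pdi, protein disulphide isomerase, was the most abundant of the 10. It lies on 3L at 15130430 to 15135745 and had 934 and 1176 FPKM in ND-75-i and 1254 and 832 FPKM in Con. The group means, 1055 ± 171 and 1043 ± 298 (SD, n = 2 each), differed by far less than the replicates, and the log2 change was 0.04 (SE 0.256, limma adjusted p = 0.918). Its sign was negative after either rescaling of the libraries, at -0.25 after median-ratio scaling and -0.46 after quantile normalization.

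ERp60, a second disulphide isomerase (the homolog of mammalian ERp57, which works with calreticulin and calnexin on glycoproteins), was the one chaperone whose groups did not overlap. It stood at 294 and 354 FPKM in ND-75-i and at 481 and 407 FPKM in Con. Both ND-75-i values lay under both Con values, which held for 21.7% of all genes tested. The log2 change of -0.45 (SE 0.149) missed the threshold over all genes (limma adjusted p = 0.1202) but passed it after quantile normalization, where it was -0.92 (limma adjusted p = 0.0466).

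CaBP1, a thioredoxin-domain protein related to mammalian P5, had 103 and 135 FPKM in ND-75-i and 167 and 107 FPKM in Con. Crc, the calcium-binding lectin chaperone calreticulin, on 3R at 5454660 to 5456607, had 646 and 837 FPKM in ND-75-i and 892 and 763 FPKM in Con. Both overlapped between groups. Their log2 changes were -0.18 (SE 0.273, limma adjusted p = 0.624) and -0.17 (SE 0.175, limma adjusted p = 0.493).

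The 4 signalling genes varied far less between replicates than the chaperones. Ire1, the kinase and endoribonuclease that senses unfolded protein, on 3R at 15680162 to 15687013, had 17.9 and 19.4 FPKM in ND-75-i and 13.0 and 12.4 FPKM in Con. Its log2 change, 0.52 (SE 0.113), was the largest of the 10 and missed the threshold (limma adjusted p = 0.0681). With the low filter set to a mean of at least 5 FPKM it passed (limma adjusted p = 0.0414); after median-ratio scaling it was 0.24 (limma adjusted p = 0.281).

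PEK, the eIF2alpha kinase of the ER membrane, on 3R at 1284285 to 1290472, had 13.9 and 13.5 FPKM in ND-75-i and 9.88 and 10.7 FPKM in Con. The log2 change was 0.38 (SE 0.12, limma adjusted p = 0.113), and 0.11 after median-ratio scaling. Both sensors thus lay above Con in both libraries, a separation shown by 53.7% of all genes tested.

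Xbp1, the transcription factor gene whose mRNA Ire1 splices, was the steadiest of the set. It had 320 and 313 FPKM in ND-75-i and 306 and 303 FPKM in Con, a log2 change of 0.06 (SE 0.0760, limma adjusted p = 0.592). The 95% interval, from -0.16 to 0.27, bounds the change to a fold between 0.897 and 1.20 on the scale of the deposited FPKM. The gene crc, on 2L at 21310854 to 21319536, stood at 414 and 432 FPKM in ND-75-i and 396 and 384 FPKM in Con (log2 change 0.12, SE 0.0809, limma adjusted p = 0.312). For both genes the direction depended on the scaling: after median-ratio scaling the changes were -0.23 and -0.17, and after quantile normalization -0.40 and -0.35.

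**Figure D1:**
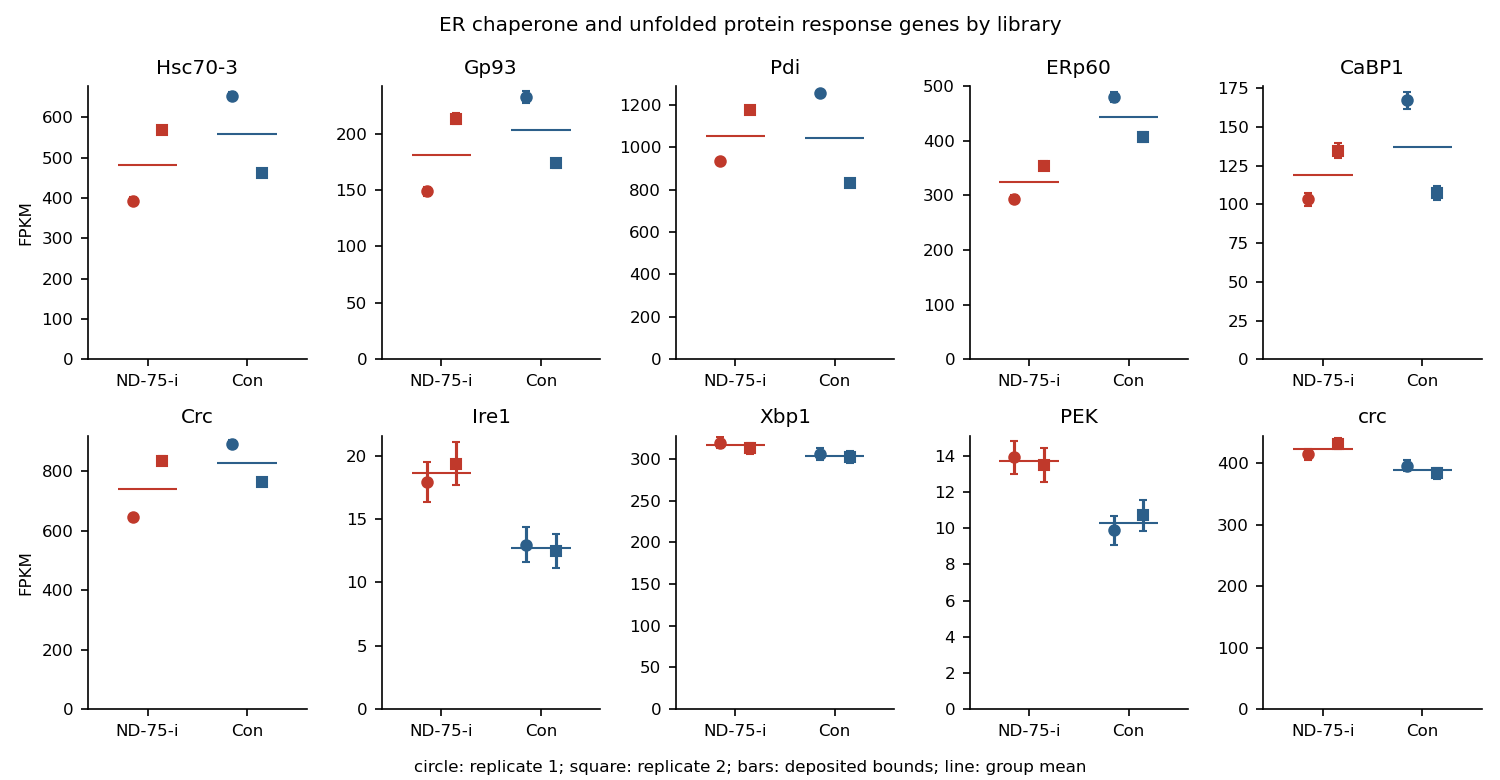
FPKM of each of the 10 genes in the 4 libraries, ND-75-i left of Con; circles are replicate 1 and squares replicate 2, error bars are the bounds deposited with each FPKM and horizontal lines are group means of 2 libraries. In the 6 chaperone panels Con replicate 1 lies above Con replicate 2 and ND-75-i replicate 2 above ND-75-i replicate 1, whereas Ire1, Xbp1, PEK and crc sit close together within each group.

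**Figure D2:**
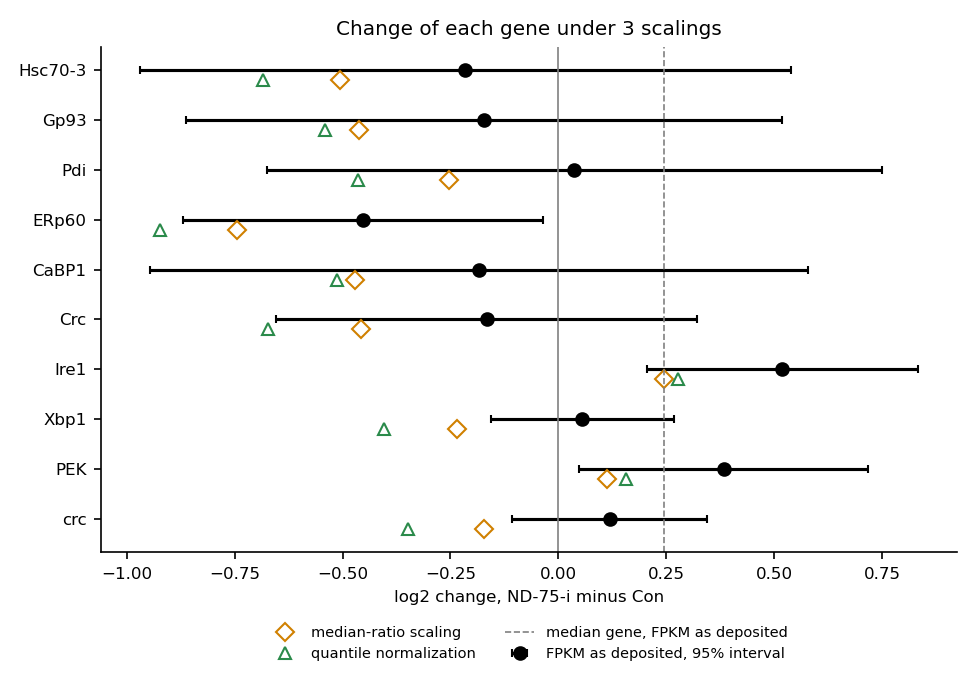
Log2 change of each gene, ND-75-i minus Con, from the deposited FPKM (filled circles with 95% intervals from limma, not adjusted for the number of genes), after median-ratio scaling (diamonds) and after quantile normalization (triangles). The dashed line marks the median of all genes tested, 0.25; under both rescalings 8 of the 10 genes lie below 0, and Ire1 and PEK lie above it.

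FPKM are scaled by transcript length, so levels can be set beside each other. In order of mean FPKM over the 4 libraries the genes were Pdi (1049), Crc (784), Hsc70-3 (519), crc (407), ERp60 (384), Xbp1 (310), Gp93 (192), CaBP1 (128), Ire1 (15.7) and PEK, at 9.88 to 13.9 in single libraries. Pdi ranked 143 and PEK 4139 among the 10023 genes tested. The ranges of neighbours over the libraries were separate only between Xbp1 and Gp93 and between CaBP1 and Ire1. Pdi was nonetheless above Crc, and Crc above Hsc70-3, in each of the 4 libraries, whereas crc was above ERp60 in 2 of them. The sensors of the response were therefore measured at levels far under those of the chaperones, while the transcription factor genes Xbp1 and crc lay within the chaperones' range.

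The chaperones moved together between libraries of one group. Con replicate 1 was above Con replicate 2 by 1.41 times for Hsc70-3, 1.51 times for Pdi, 1.56 times for CaBP1, 1.34 times for Gp93, 1.18 times for ERp60 and 1.17 times for Crc. Within ND-75-i it was replicate 2 that was above replicate 1, by 1.44 times for Hsc70-3, 1.43 times for Gp93, 1.31 times for CaBP1, 1.295 times for Crc, 1.26 times for Pdi and 1.21 times for ERp60. For these 6 genes the deposited bounds of the 2 replicates did not overlap in either group. For the 4 signalling genes they overlapped in both. The half-widths of those bounds were at most 4.18% of the FPKM for a chaperone and 10.9% for a signalling gene.

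The same difference ran through much of the secretory pathway. Of 106 other genes of folding, signalling, degradation, translocation, glycosylation and vesicle transport, 72 (67.9%) had both Con replicate 1 above replicate 2 and ND-75-i replicate 2 above replicate 1, as did 1103 of all 10023 genes tested. It held for 24 of 25 COPII and COPI transport genes, for 18 of 20 translocation genes and for 11 of 16 other lumenal folding genes. In the other lists it held for 8 of 17 N-glycosylation genes, 6 of 13 degradation genes and 5 of 15 signalling genes. Among 834 genes with a mean of at least 100 FPKM, the 10 genes left out, it held for 17.4%. These counts describe 4 libraries and carry no test. Glue gene FPKM was also higher in Con replicate 1 than in Con replicate 2, but was lower in ND-75-i replicate 2 than in ND-75-i replicate 1, where the chaperones were higher. The summed FPKM of 6 hemocyte markers was 45.7 and 55.8 in ND-75-i and 52.0 and 110 in Con, and that of 10 muscle markers 71.2 and 52.7 against 38.6 and 44.0. All 6 hemocyte markers had a log2 change below 0, as did 3280 of all 10023 genes tested. The median of the 6 was -0.79, and 0 passed the threshold. The 6 testis markers summed to 209 and 40.5 FPKM in ND-75-i and to 340.8 and 253.5 FPKM in Con. Every one was lower in both ND-75-i libraries, beside 21.7% of all genes tested, and 0 of the 6 passed the threshold. The 2 oenocyte markers summed to 3947 and 2979 FPKM in ND-75-i against 1283 and 1307 FPKM in Con. Nearly all of that was desat1, a fatty acid desaturase gene that the fat body also expresses, which rose (limma adjusted p = 0.0322). The 6 gut markers summed to 553.6 and 1434 FPKM in ND-75-i and 252.8 and 2045 FPKM in Con, and the 3 nervous system markers to 71.9 and 64.7 against 59.7 and 67.1 FPKM. The nervous system sums hide differences between genes. Of the 3 markers, 2 were higher in both ND-75-i libraries, beside 53.7% of all genes tested, and 1 was lower in both, beside 21.7%. The median log2 change of the 3 markers was 1.38, and 1 rose past the threshold. Among the markers of other cell types, a value of 0 occurred for the gut gene LvpH, in ND-75-i replicate 2 and Con replicate 1. The part of these markers in the result was not tested.

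**Figure D3:**
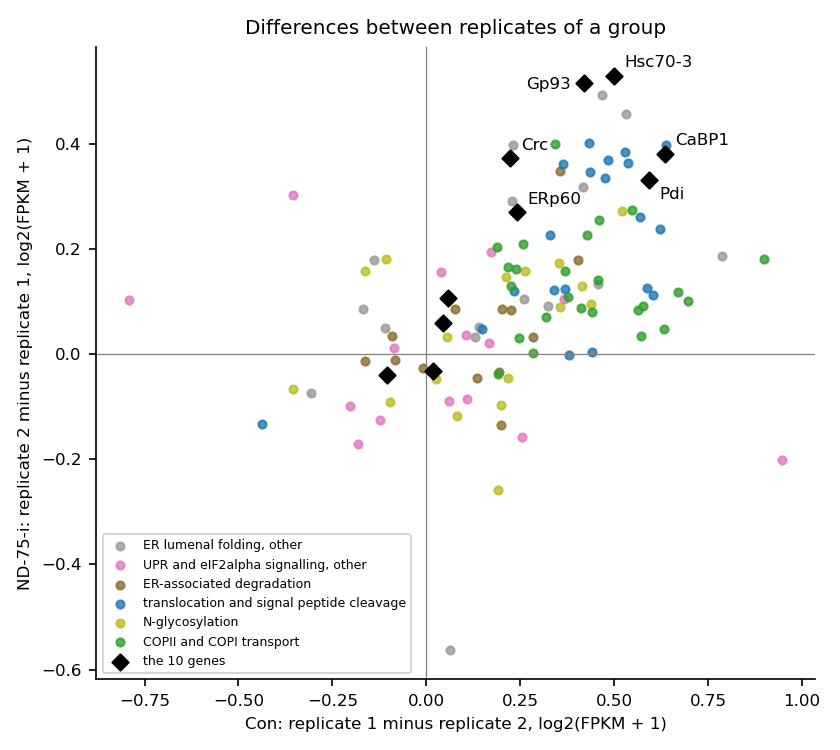
Each point is a gene; the x axis gives Con replicate 1 minus Con replicate 2 and the y axis ND-75-i replicate 2 minus ND-75-i replicate 1, both as differences in log2(FPKM + 1). The 6 chaperones (labelled diamonds) and most translocation and COP genes lie in the upper right quadrant, the other 4 diamonds lie near the origin.

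By a likeness fixed as the Euclidean distance between log2(FPKM + 1) profiles over the 4 libraries, each centred on its mean, the nearest genes to Hsc70-3 outside all lists were CG17109 (distance 0.060), CG5039, CG30094, l(1)G0320 and CG15343 (0.191), among 4474 genes with a mean of at least 10 FPKM and a median distance of 0.850. Of these l(1)G0320 was the most abundant, at 275 and 358 FPKM in ND-75-i and 391 and 298 FPKM in Con. Nearest to Pdi were lva (distance 0.060), CG1486, CG9706, CG33977, whose current symbol is Dpm3, and ergic53 (0.157). The last stood at 138 and 156 FPKM in ND-75-i and at 178 and 127 FPKM in Con. A profile of 4 values leaves many genes close by.

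Among 16 other genes of lumenal folding, 2 rose and 0 fell, beside 7.76% and 1.09% of all genes tested. The median log2 change of the 16 was 0.15, and -0.11 after median-ratio scaling. The gene wbl (windbeutel), a relative of mammalian ERp29 needed in the embryo for dorsoventral patterning, rose to 7.69 and 7.89 FPKM in ND-75-i, against 3.09 and 2.74 FPKM in Con (log2 change 1.17, SE 0.158, limma adjusted p = 0.0352). The thioredoxin-domain gene prtp (pretaporter), also known for its part in the clearance of apoptotic cells, rose to 48.5 and 50.3 FPKM, against 30.6 and 33.1 FPKM in Con (log2 change 0.62, SE 0.0940, limma adjusted p = 0.0414). After median-ratio scaling both missed the threshold (limma adjusted p = 0.0691 and 0.127). With any 1 of the 4 libraries left out, no called gene of the lists described here and below stayed past it (lowest limma adjusted p = 0.0512). The most abundant, Manf, a secreted ER stress-inducible neurotrophic factor, overlapped between groups at 119 and 164 FPKM in ND-75-i and 181 and 125 FPKM in Con.

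Of 15 other genes of unfolded protein and eIF2alpha signalling, 1 rose and 0 fell, beside 7.76% and 1.09% of all genes tested. All 15 had a log2 change above 0 in the deposited FPKM, as did 6743 of all 10023 genes tested. The median of the 15 was 0.37, and in 12 the ND-75-i values lay above the Con values, beside 53.7% of all genes tested. After median-ratio scaling 5 of the 15 lay below 0 and the median was 0.10. The gene that rose was Xrp1, a stress-responsive bZIP factor best known from cell competition. It stood at 316 and 289 FPKM in ND-75-i, against 176 and 191 FPKM in Con (log2 change 0.72, SE 0.0969, limma adjusted p = 0.0351, and 0.0718 after median-ratio scaling). Thor, the translational inhibitor 4E-BP and a target of crc, was the most abundant and did not pass, at 1313 and 1411 FPKM in ND-75-i and 662 and 1147 FPKM in Con (limma adjusted p = 0.186). Atf6, the third sensor gene, was at 21.8 and 20.5 FPKM in ND-75-i and 20.3 and 19.5 FPKM in Con.

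In the remaining lists limma called 0 genes in either direction, beside 7.76% higher and 1.09% lower of all genes tested. At an unadjusted p below 0.05, 29.4% of all genes tested were higher and 7.70% lower. By that measure there were 0 of 20 translocation and signal peptidase genes and 2 lower of 25 COPII and COPI genes. There were 2 higher and 1 lower of 17 N-glycosylation genes, and 1 higher of 13 genes of ER-associated degradation. In the same order of lists, the median log2 changes were -0.06, -0.04, 0.12 (-0.16 after median-ratio scaling) and -0.07. Sec61beta, of the translocation channel, was the most abundant gene of its list at 355 and 470 FPKM in ND-75-i and 565 and 418 FPKM in Con. Dad1, of the oligosaccharyltransferase and listed as CG13393, stood at 153 and 149 FPKM in ND-75-i against 200 and 172 FPKM in Con. The small GTPase gene Arf79F, which recruits COPI, was at 484 and 494 against 464 and 391 FPKM, and TER94, the segregase of ER-associated degradation, at 144 and 142 against 137 and 138 FPKM. Relative to the median gene, 19 of the 20 translocation genes, 24 of the 25 transport genes and 12 of the 13 degradation genes lay lower, beside 50.0% of all genes tested. The other lists had fewer below it: 12 of 17 N-glycosylation genes, 11 of 16 other lumenal folding genes and 5 of 15 other signalling genes.

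For chaperones of other compartments the values were as follows. Of 6 mitochondrial chaperone genes 5 rose and 0 fell, beside 7.76% and 1.09% of all genes tested, with a median log2 change of 1.03. After median-ratio scaling the median was 0.74, and Trap1 and Roe1 missed the threshold (limma adjusted p = 0.0827 and 0.0746). The 5 were CG11267 (the fly Hsp10), Hsp60, Trap1, Roe1 and Hsc70-5. The last, the mitochondrial Hsp70, stood at 116 and 109 FPKM in ND-75-i against 50.8 and 54.1 FPKM in Con (log2 change 1.09, SE 0.0876, limma adjusted p = 0.0189). Of 22 cytosolic Hsp70, Hsp90 and chaperonin genes 3 rose and 0 fell, with a median of 0.39. The 3 were Hsp70Aa, Hsp70Ba and Hsp70Bbb, copies of the heat-inducible Hsp70 gene that are near-identical and could share reads. None of the 3 was kept by a filter at a mean of at least 5 FPKM. Their log2 changes, 2.51, 1.98 and 2.33, were 1.135, 0.78 and 1.05 with 5 in place of 1 added to the FPKM. The constitutive cytosolic Hsp70 gene Hsc70-4 was at 1224 and 1182 FPKM in ND-75-i and 792 and 910 FPKM in Con and missed the threshold (limma adjusted p = 0.0708). The FPKM of Hsc70-3 per FPKM of Hsc70-4 was 0.321 and 0.481 in ND-75-i, against 0.825 and 0.507 in Con. Whether the compartments differ was not tested.

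**Figure D4:**
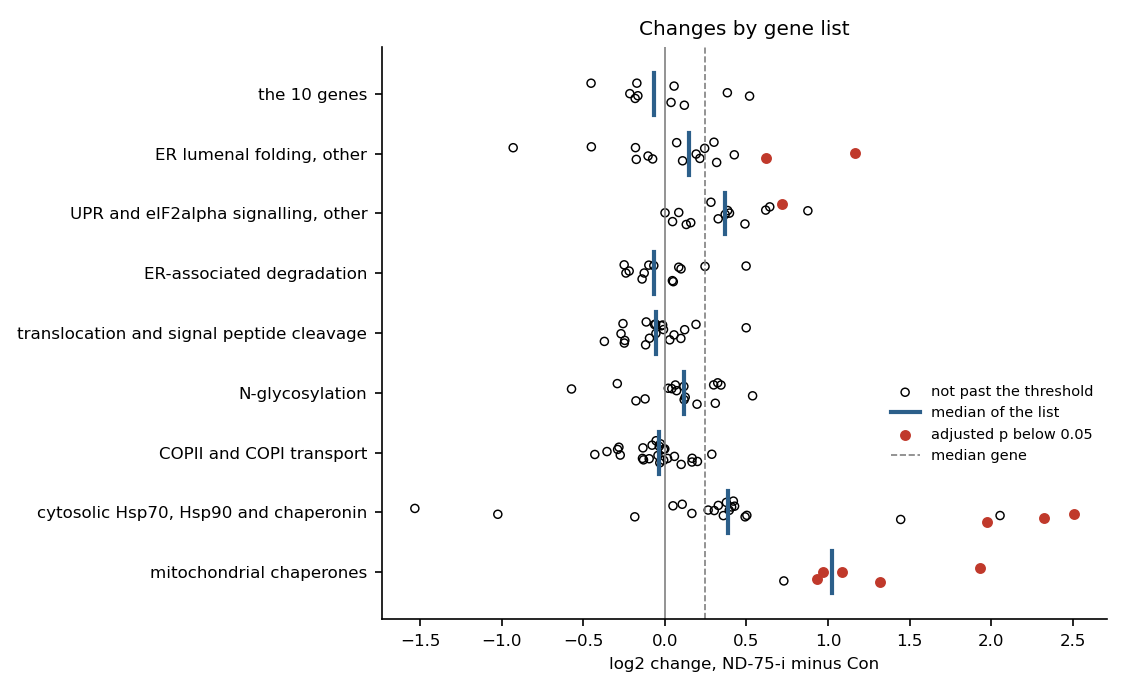
Log2 change of each gene, ND-75-i minus Con, by list; filled points passed an adjusted p of 0.05, open points did not, thick bars are list medians and the dashed line is the median of all genes tested, 0.25. The 10 genes have a median of -0.06, the translocation genes -0.06 and the transport genes -0.04, and the mitochondrial chaperones 1.03.

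The cargo of this machinery held large changes in both directions. Of 33 secreted and storage products that could be tested, 9 rose and 3 fell, beside 7.76% and 1.09% of all genes tested. The groups did not overlap in 30 of the 33, with ND-75-i above in 19 and below in 11, beside 53.7% and 21.7% of all genes tested. Lsp1alpha, a larval serum storage protein, fell to 2893 and 4506 FPKM in ND-75-i, against 28004 and 25267 FPKM in Con (log2 change -2.88, SE 0.272, limma adjusted p = 0.0220). Obp99b, a small secreted binding protein and the most abundant transcript of the list, fell to 14578 and 16165 FPKM in ND-75-i, against 68905 and 71085 FPKM in Con (log2 change -2.19, SE 0.203, limma adjusted p = 0.0217). The insulin antagonist ImpL2 fell as well. Fbp1, given above, missed the threshold with a large spread in ND-75-i (limma adjusted p = 0.0594). The clotting protein gene fon was at 1961 and 2171 FPKM in ND-75-i and 3152 and 3036 FPKM in Con (limma adjusted p = 0.0602).

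Other cargo was higher in ND-75-i. Nplp2, a small secreted peptide gene, rose to 19506 and 15830 FPKM in ND-75-i, against 2861 and 2827 FPKM in Con (log2 change 2.63, SE 0.167, limma adjusted p = 0.0182). SPARC, a basement membrane glycoprotein listed as BM-40-SPARC, rose to 887 and 694 FPKM, against 394 and 399 FPKM in Con (log2 change 0.98, limma adjusted p = 0.0412). The collagen IV gene Col4a1, listed as Cg25C, rose to 362 and 310 FPKM, against 182 and 143 FPKM in Con (log2 change 1.05, limma adjusted p = 0.0432). The transferrin gene Tsf1, the lipid transfer particle gene Apoltp (listed as CG15828), the imaginal disc growth factors Idgf1 and Idgf2, the binding protein gene Obp44a and the growth-blocking peptide gene Gbp2 (listed as CG11395) rose too, by 0.63 to 1.39 on the log2 scale. After median-ratio scaling, 2 of the 9 that rose, Nplp2 and Idgf2, still passed the threshold; the other 7 had limma adjusted p-values of 0.0649 to 0.108. All 3 that fell passed it there too. The lipoprotein gene apolpp, listed as Rfabg, did not pass, at 2940 and 3098 FPKM in ND-75-i and 2688 and 2237 FPKM in Con (log2 change 0.30, limma adjusted p = 0.193), although both ND-75-i values lay above both Con values.

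Summed over the 34 products with an estimate in all libraries, secreted cargo stood at 51158 and 50452 FPKM in ND-75-i and at 126636 and 128668 FPKM in Con. The 6 chaperones summed to 2519 and 3282 FPKM in ND-75-i and to 3679 and 2744 FPKM in Con, with overlapping groups. There were thus 20.3 and 15.4 FPKM of cargo per FPKM of chaperone in ND-75-i, against 34.4 and 46.9 in Con. With 2 libraries per group an exact permutation test cannot go below p = 0.333, and no other test of the ratio was run. Lsp1alpha, Obp99b and Fbp1 made up 34.2% and 41.7% of the cargo sum in ND-75-i and 88.3% and 88.8% in Con. Without these 3 genes the cargo sum was 33664 and 29389 FPKM in ND-75-i and 14756 and 14419 FPKM in Con, the opposite order. All 3 were lower in both ND-75-i libraries, so leaving them out moves the sums toward ND-75-i by construction. Nplp2 alone, given above, made up the largest part of the remaining sum in ND-75-i.

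Some values that bear on this ratio are missing. Lsp1beta and Lsp1gamma are listed at 0 in all 4 libraries and Lsp2 at 0 in both Con libraries because their estimates failed on too many fragments, so the cargo sums leave them out. Lsp2 had 16637 and 25411 FPKM in ND-75-i. The glue genes add secretory load of another tissue, 10.5 and 5.47 FPKM per FPKM of chaperone in ND-75-i and 22.1 and 14.0 in Con, and how much of the chaperone FPKM comes from salivary gland was not tested.

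**Figure D5:**
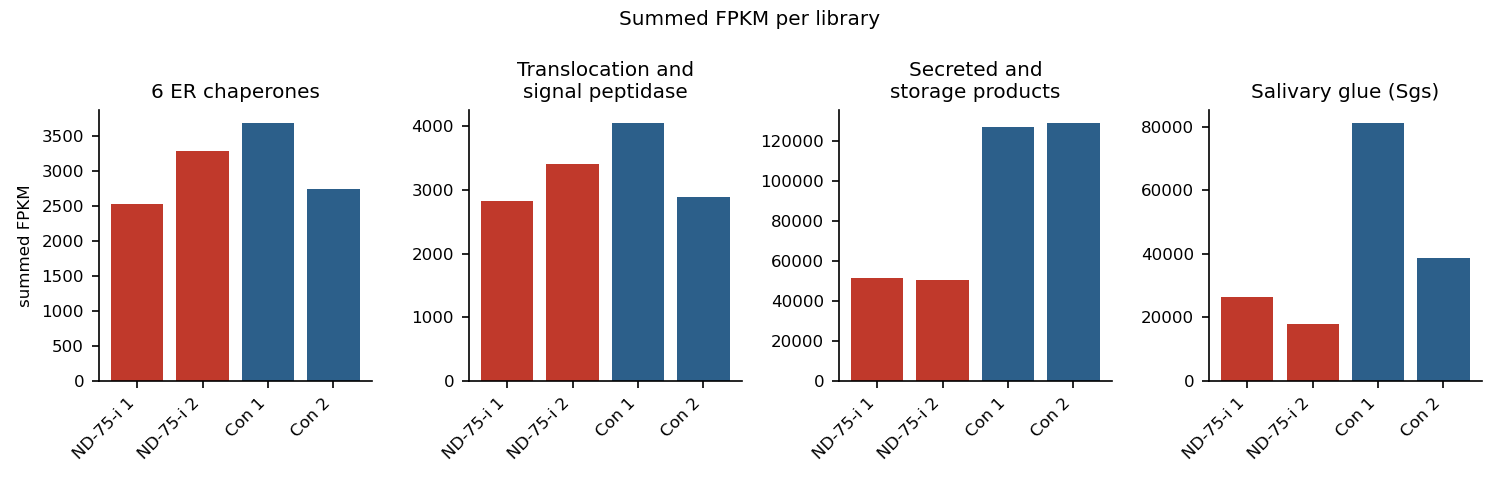
Summed FPKM in each library, ND-75-i left of Con, for the 6 ER chaperones, 20 genes of translocation and signal peptide cleavage, 34 secreted and storage products with an estimate in all libraries, and 6 salivary glue genes; each axis starts at 0 and bars are single libraries. Cargo is 50452 to 51158 FPKM in ND-75-i and 126636 to 128668 FPKM in Con, whereas the chaperone sums of the groups overlap.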

How the data were processed

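The authors deposited 1 FPKM table per library, of 14146 lines, in which each value has bounds and a status, per the file headers. The submitters' processing notes name Bowtie 0.12.2. How FPKM were computed, with which annotation, strand setting and genome build, is not given in the sources used here. Printed positions come from the tables, each start raised by 1. Library depth is not given; the deposited bounds are the only within-library precision, and they cover sampling of fragments, not replicates. Of 13990 symbols, 93 stood on more than 1 line, and the line with the highest mean was kept. Up to 5 names per table that did not match the others were placed by position. List names were matched through RefSeq symbols and synonyms (Release 6 plus ISO1 MT); ambiguous names stayed out.

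Genes whose status was OK in every library and at least 1 FPKM in at least 2 were tested, 10023 in all. On log2(FPKM + 1), limma 3.58.1 in R 4.3.3 fitted group alone, with an intensity trend; tests were two-sided, with Benjamini-Hochberg adjustment over all genes and a threshold of 0.05 (2 residual and 1.95 prior degrees of freedom). Such changes understate those of genes with low FPKM. Intervals use the same degrees of freedom at 95%. The procedure was tested on simulated data. Python 3.11.15 (matplotlib 3.10.9, NumPy 2.4.6, pandas 2.3.3) made tables and figures.

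The genes and lists were chosen with earlier results of these data known. Named were all 10 genes, ND-75 and w, up to 4 genes past the threshold and the most abundant gene of each list, the 6 most abundant and all called secreted products, those without an estimate, and the 5 nearest profiles to Hsc70-3 and Pdi. Atf6, CG4951 and the ratio of Hsc70-3 to Hsc70-4 were added after their values were seen; the cell type markers were a list of their own. Of the list names, 3 were dropped before their values were seen because their function was in doubt. Alternatives were median-ratio scaling, quantile normalization, other pseudocounts and low filters, any status, the replicate number as a block and each library left out in turn. A planned count of genes by C-terminal retrieval signal was not made.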

Additional observations from a re-analysis of the deposited data

How the results depend on the processing

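None of the 10 genes was called, with these exceptions: quantile normalization, which gave 1 lower (ERp60), and a mean of at least 5 FPKM, which gave 1 higher (Ire1). Over all genes, median-ratio scaling gave 348 higher, quantile normalization 379 lower, no low filter 214 higher and 50 lower, and the replicate number as a block 198 lower. Of the other secretory pathway genes, 3 were higher, against 0 after median-ratio scaling, 1 higher and 2 lower after quantile normalization and 0 without a low filter. The median log2 change of the 10 genes, -0.06, was -0.36 after median-ratio scaling and -0.49 after quantile normalization, where the median of all genes was -0.01 and 0.04, against 0.25 in the deposited FPKM. The direction was reversed for Pdi (-0.25 and -0.46), Xbp1 (-0.23 and -0.40) and crc (-0.17 and -0.35). These scalings remove the shift of the median gene by construction.

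With each library left out in turn, the lone library being assumed to vary like the other group, limma called 0 to 2 genes higher and 0 to 1 lower over the whole table, 0 of the 10 genes and 0 other secretory pathway genes. The median of the 10 ran from -0.27 (without Con replicate 2) to 0.10 (without Con replicate 1). The range was -0.48 to 0.049 for Hsc70-3, -0.43 to 0.085 for Gp93, -0.50 to 0.13 for CaBP1, -0.35 to 0.020 for Crc and -0.26 to 0.33 for Pdi, so the direction of each of these chaperones rests on single libraries. ERp60, Xbp1, Ire1, PEK and crc kept their sign.

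Replicate numbers are shared by the groups but nothing says that they pair the samples. Over 10023 genes the deviations of same-numbered libraries correlated at 0.357, with 2 pairs. With the replicate block limma called 792 genes higher and 0 of the 10 genes. Depth and the failed estimates of Lsp1beta, Lsp1gamma and Lsp2 limit the cargo sums.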
